A study of Homo sapiens with 10 samples.

Results

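The facilitative hexose transporters of the SLC2A family carry glucose, fructose and related sugars across membranes down their concentration gradient. Of this family 5 genes were examined here: SLC2A1, SLC2A3, SLC2A5, SLC2A7 and SLC2A14, which encode GLUT1, GLUT3, GLUT5, GLUT7 and GLUT14. They were represented by all rows of the deposited table whose platform annotation lists one of these symbols, which gave 55 of the 56949 rows with a listed gene and 5 of 4713 genes. SLC2A1 has 12 rows, SLC2A3 8, SLC2A14 9, SLC2A5 14 and SLC2A7 12, each row being taken as a probe set for a part of its gene. Of the 55 rows 0 list several symbols, although SLC2A3 and SLC2A14 are so alike in sequence that probes for one can bind RNA of the other.

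RNA was measured on Affymetrix HG1.0ST chips in SW620, an established human colon cancer cell line, and in cells regrown in culture from metastases that the line had formed in balb/c nude mice. Liver metastasis derivatives were measured on 3 arrays, lung metastasis derivatives on 3 and parental cells on 4, all labelled as biological replicates and all grown in the same medium with fetal bovine serum. The labels do not say how many metastases or mice stand behind a group, so the p-values speak only of the spread among the arrays, part of which may be technical. The values are log2 expression values, and since every row has its own probes, a level is compared between arrays and never between rows or genes.

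GLUT1 is the widely expressed transporter of basal glucose uptake, and GLUT3 is a high-affinity glucose transporter best known from neurons. GLUT14 arose by duplication of SLC2A3, and its RNA was first described in testis. GLUT5 is the fructose transporter of the intestinal brush border, and GLUT7 is an intestinal family member whose substrates are debated. In many tumours RNA of SLC2A1 and SLC2A3 is raised, and hypoxia-inducible factors are known to act on both genes.

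Parental array 4 stood apart from the other parental arrays over the tested rows. Its Pearson correlation was 0.965 to 0.968 with parental arrays 1 to 3 and 0.963 to 0.964 with the lung arrays, against 0.986 to 0.988 among parental arrays 1 to 3. With the liver arrays its correlation was 0.956 to 0.960, and parental arrays 1 to 3 correlated with the lung arrays at 0.940 to 0.957. Parental array 4 was thus nearer to the lung arrays than parental arrays 1 to 3 were, but no nearer to them than to parental arrays 1 to 3. Changes of the SLC2A genes and their called rows, and the calls of the other named genes, are also given within 2 array sets. These sets were assumed from earlier work on these data, and the labels do not give them. In the first set the liver arrays are compared with parental arrays 1 to 3, and in the second the lung arrays are compared with parental array 4 alone. A single array has no spread of its own, so every SE and p against parental array 4 takes its spread from the other arrays and assumes that parental array 4 varies like them. Of the epithelial markers, KRT8 averaged 12.77 ± 0.06 in liver derivatives, 12.82 ± 0.10 in lung derivatives and 12.75 ± 0.04 in parental cells (SD, n = 3, 3 and 4), and ELF3 was the one of 4 epithelial markers called, lower in both derivatives.

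RefSeq promoter sequences (GRCh38.p14) were at hand for 3 of the 5 genes, SLC2A1, SLC2A5 and SLC2A14, and are shown because each of these genes passed the test in at least one comparison below. Each sequence is the 250 bases before the annotated start, 5′ to 3′ on the gene's strand, which is the minus strand for all 3. Capitals mark matches on either strand to the hypoxia response core (ACGTG or GCGTG), the CCAAT box (CCAAT), the TATA box (TATAAA) and the GC box (GGGCGG).
SLC2A1, chr1:42958869-42959118: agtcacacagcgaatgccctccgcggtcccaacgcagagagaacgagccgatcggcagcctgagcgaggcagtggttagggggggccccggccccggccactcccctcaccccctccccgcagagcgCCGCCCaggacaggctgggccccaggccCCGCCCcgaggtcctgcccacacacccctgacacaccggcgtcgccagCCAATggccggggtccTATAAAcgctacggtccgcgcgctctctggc
SLC2A14, chr12:7872916-7873165: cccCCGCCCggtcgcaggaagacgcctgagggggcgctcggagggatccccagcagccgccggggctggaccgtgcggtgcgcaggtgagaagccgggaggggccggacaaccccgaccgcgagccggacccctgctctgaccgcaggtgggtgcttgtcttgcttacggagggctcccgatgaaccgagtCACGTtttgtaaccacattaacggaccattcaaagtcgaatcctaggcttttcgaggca
SLC2A5, chr1:9069636-9069885: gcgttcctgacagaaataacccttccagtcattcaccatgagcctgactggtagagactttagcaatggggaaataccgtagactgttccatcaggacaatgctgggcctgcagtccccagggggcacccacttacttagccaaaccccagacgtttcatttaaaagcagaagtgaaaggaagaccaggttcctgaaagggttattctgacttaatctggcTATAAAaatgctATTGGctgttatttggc

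The SLC2A1 window holds a TATA box whose first base lies 31 bases before the start, a CCAAT box at 47 bases and GC boxes on the other strand at 95 and 123 bases. The SLC2A5 window holds a TATA box at 29 bases and a CCAAT box on the other strand at 17 bases. The SLC2A14 window has a GC box on the other strand at 247 bases and the one ACGTG core among the 3 windows, on the other strand at 59 bases. Among 35116 windows of this length, 10.7% hold the TATA box, 32% the CCAAT box, 42.6% the GC box, 18.5% the ACGTG core and 32.2% the GCGTG core. A match is a description of these letters only.

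Among the glucose transporters, SLC2A3 was higher in both kinds of derivative by the mean of its 8 rows. The mean log2 level was 9.94, 9.93 and 9.99 in the liver arrays and 10.03, 10.05 and 10.52 in the lung arrays, against 9.01, 8.94, 8.96 and 9.70 in parental arrays 1 to 4. All 6 derivative arrays lay above all 4 parental arrays. Taken separately, the liver arrays did so in 11.1% of all genes and the lung arrays in 12.8%. Parental array 4 lay between the other parental arrays and the derivatives. Against parental cells SLC2A3 rose by 0.80 in liver derivatives (1.74-fold, SE 0.18, limma adjusted p = 0.0170) and by 1.05 in lung derivatives (2.07-fold, SE 0.18, adjusted p = 0.00253). By the same mean, 4.33% of all 4713 genes were called higher and 3.5% lower in liver derivatives, and 12.9% higher and 17.3% lower in lung derivatives, a call being a limma adjusted p under 0.05.

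The size of both SLC2A3 changes turned on parental array 4. Within the array sets, the liver derivatives exceeded parental arrays 1 to 3 by 0.98 (SE 0.11, limma adjusted p = 0.000363), and the lung derivatives exceeded parental array 4 by 0.50 (SE 0.16, adjusted p = 0.102). In these within-set comparisons 8.95% of all genes were called in liver and 5.75% in lung derivatives. Without parental array 4 the lung change was 1.23. The liver call was lost without parental array 1 (change 0.75, limma adjusted p = 0.0531), parental array 2 (0.73, 0.0544) or liver arrays 1, 2 and 3 in turn (0.80, 0.81 and 0.78; adjusted p = 0.0670, 0.0607 and 0.0755). It was also lost by the brightest row (0.23) and by the median of the rows (0.88, limma adjusted p = 0.0832).

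**Figure D1:**
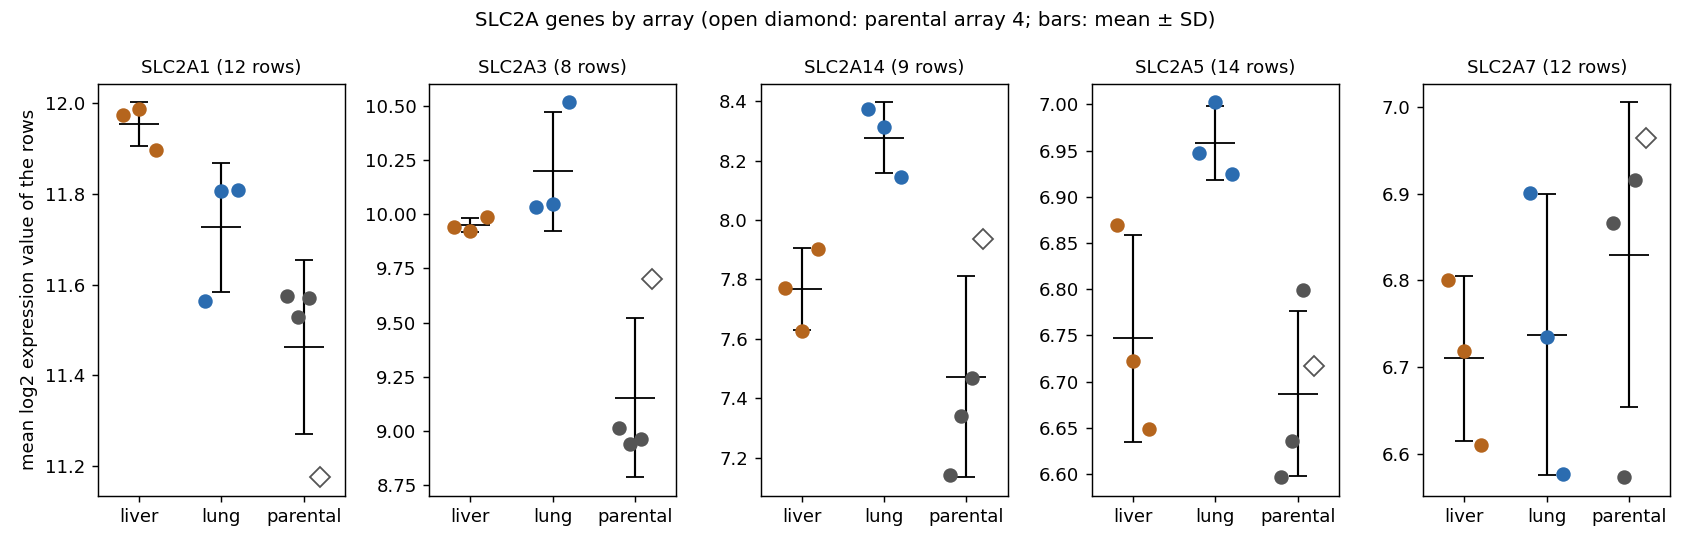
Mean log2 expression value of all rows of each SLC2A gene (vertical axes, one scale per gene) on each array of the liver, lung and parental groups. Circles are arrays, the open diamond is parental array 4 and bars are the mean ± SD. The SLC2A3 derivative arrays (9.93 to 10.52) lie above all parental arrays (8.94 to 9.70), and parental array 4 is the lowest array for SLC2A1 (11.18).

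Row by row, all 8 SLC2A3 rows had a positive difference in both comparisons, against 51.7% of all rows in liver and 46.3% in lung derivatives. In lung derivatives 5 of the 8 rows were called higher, against 5.15% of all rows, with differences over the 8 rows from 0.16 to 1.79. In liver derivatives 0 of the 8 rows were called, against 1.15% of all rows called higher, with differences from 0.23 to 1.09. Within the array sets 4 rows were called higher in liver and 0 in lung derivatives, where 1.36% and 0.745% of all rows were called higher.

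The brightest SLC2A3 row, 7960868, held 11.38, 11.32 and 11.48 in the liver arrays and 12.21, 12.10 and 12.27 in the lung arrays, against 11.02, 10.87, 10.99 and 11.77 in parental arrays 1 to 4. Here the lung arrays lay above every other array, while parental array 4 exceeded the liver arrays. The row rose by 1.03 in lung derivatives (SE 0.20, limma adjusted p = 0.0152) and differed by 0.23 in liver derivatives (SE 0.20, adjusted p = 0.724). Against parental array 4 alone its lung difference was 0.42 (limma adjusted p = 0.178), and against parental arrays 1 to 3 its liver difference was 0.43 (adjusted p = 0.0527).

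The largest lung difference of an SLC2A3 row was in row 7960871, where the lung arrays held 10.68, 10.80 and 11.48 and parental arrays 1 to 4 held 8.72, 8.93, 8.73 and 10.41. This is a 3.45-fold rise (1.79, SE 0.40, limma adjusted p = 0.0246), and its liver arrays held 10.16, 9.97 and 10.45. The liver arrays thus lay on both sides of parental array 4 and above the other parental arrays. Within the array sets the row differed by 0.57 in lung (limma adjusted p = 0.414) and by 1.4 in liver derivatives (adjusted p = 0.0147), and 4 of 10 arrays, left out singly, ended the lung call. In row 7960870 the liver arrays held 11.37, 11.42 and 11.65 and the lung arrays 11.12, 11.19 and 11.83, against 10.31, 10.22, 10.22 and 10.97 in parental arrays 1 to 4. In that row all derivative arrays lay above all parental arrays, with differences of 1.05 in liver (SE 0.23, limma adjusted p = 0.0527) and 0.95 in lung derivatives (SE 0.23, adjusted p = 0.0296). Within the array sets the liver difference was 1.23 (limma adjusted p = 0.0122) and the lung difference 0.41 (adjusted p = 0.486), so that the call passed to the liver derivatives.

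**Figure D2:**
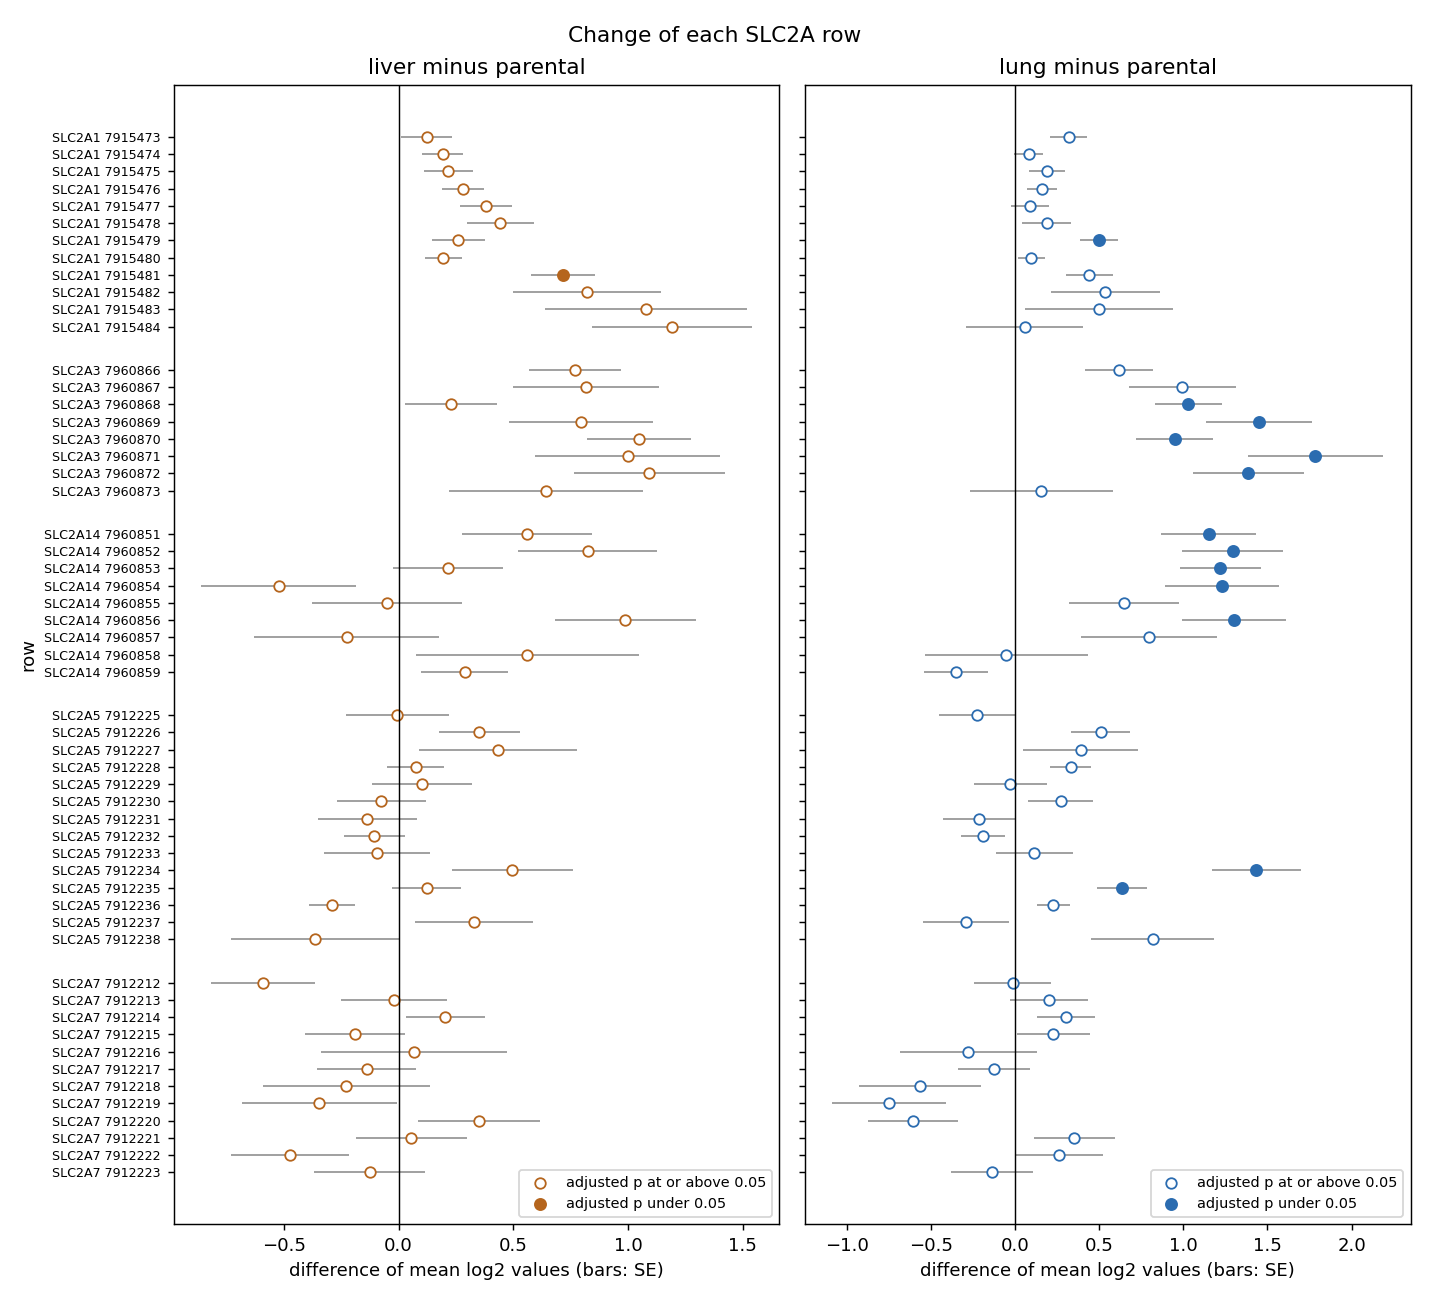
Difference of mean log2 values for each of the 55 SLC2A rows (horizontal axes, bars are SE), liver minus parental on the left and lung minus parental on the right. Filled points have an adjusted p under 0.05: 1 row in liver derivatives, of SLC2A1, and 13 in lung derivatives, of SLC2A3, SLC2A14, SLC2A5 and SLC2A1.

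SLC2A14, the duplicate of SLC2A3, was higher in lung derivatives by the mean of its 9 rows. Its mean log2 level was 7.77, 7.63 and 7.90 in the liver arrays and 8.37, 8.31 and 8.15 in the lung arrays, against 7.14, 7.34, 7.47 and 7.94 in parental arrays 1 to 4. The lung arrays lay above all others, whereas parental array 4 exceeded all 3 liver arrays. SLC2A14 rose by 0.80 in lung derivatives (1.75-fold, SE 0.15, limma adjusted p = 0.00466), and its liver difference was 0.29 (95% interval -0.05 to 0.63, adjusted p = 0.361). Against parental array 4 alone the lung difference was 0.34 (limma adjusted p = 0.188), and against parental arrays 1 to 3 the liver difference was 0.45 (adjusted p = 0.0209).

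Among the 9 SLC2A14 rows 5 were called higher in lung derivatives and 0 in liver derivatives, against 5.15% and 1.15% of all rows. Of the 9, 0 were called by limma against parental array 4 alone. The brightest, row 7960853, held 10.37, 10.28 and 10.44 in the liver arrays and 11.40, 11.29 and 11.41 in the lung arrays, against 9.85, 9.92, 9.90 and 10.92 in parental arrays 1 to 4. Across the 10 arrays its Pearson correlation with SLC2A3 row 7960868 was 0.994. Rows 7960852 and 7960856 of SLC2A14 each correlated at 0.979 with an SLC2A3 row, and row 7960851 at 0.941. For the other 5 rows the highest correlation with any SLC2A3 row was 0.52 to 0.833. The 4 rows of SLC2A14 that followed SLC2A3 most closely were all among its 5 called rows. Rows that rise in the same arrays correlate, and by the mean of rows the genes KDM5B and CD9 correlated with SLC2A3 at 0.993 and 0.990. Whether the signal of these 4 rows came from SLC2A14 or SLC2A3 RNA was not tested.

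Rows 7960858 and 7960859 of SLC2A14 had negative lung differences. Row 7960859, whose highest correlation with an SLC2A3 row was 0.52, held 9.81, 9.55 and 9.61 in the liver arrays and 8.99, 8.95 and 9.11 in the lung arrays, against 9.48, 9.43, 9.73 and 8.83 in parental arrays 1 to 4. Parental array 4 and the lung arrays were the 4 low arrays of this row, and its differences were 0.29 in liver (limma adjusted p = 0.621) and -0.35 in lung derivatives (adjusted p = 0.231).

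SLC2A1, which encodes GLUT1, was higher in liver derivatives by the mean of its 12 rows. Its mean log2 level was 11.97, 11.99 and 11.90 in the liver arrays and 11.56, 11.81 and 11.81 in the lung arrays, against 11.57, 11.53, 11.57 and 11.18 in parental arrays 1 to 4. The liver arrays lay above every other array, lung array 1 lay among the parental arrays, and parental array 4 was the lowest. SLC2A1 rose by 0.49 in liver derivatives (1.41-fold, SE 0.10, limma adjusted p = 0.0122), and its lung difference was 0.26 (95% interval 0.04 to 0.49, adjusted p = 0.0740).

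By the mean of rows, parental array 4 moved the SLC2A1 differences the opposite way from those of SLC2A3. This did not hold in every row. In rows 7915473, 7915475, 7915479 and 7915480 parental array 4 was the highest parental array. For the mean of rows, the liver rise against parental arrays 1 to 3 was 0.40 (limma adjusted p = 0.00649). Against parental array 4 alone the lung difference of that mean was 0.55. Without parental array 4 the lung difference was 0.17. The liver call was lost without liver array 1 (change 0.48, limma adjusted p = 0.0559) or liver array 2 (0.47, 0.0607). It was also lost by the median of the rows (0.29, limma adjusted p = 0.0707) and by the brightest row, 7915480 (0.20, adjusted p = 0.202). That row held 13.06, 13.08 and 13.04 in the liver arrays and 12.92, 12.96 and 13.01 in the lung arrays, against 12.81, 12.85, 12.85 and 12.94 in parental arrays 1 to 4.

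All 12 SLC2A1 rows had a positive difference in both comparisons, and in liver derivatives 9 of them did not overlap with the parental arrays, against 8.59% of all rows apart as higher. Only row 7915481 was called in liver derivatives, where the liver arrays held 12.03, 12.11 and 12.04 and the parental arrays 11.56, 11.39, 11.42 and 11.01. This is a 1.64-fold rise (0.72, SE 0.14, limma adjusted p = 0.0323), and 0.60 against parental arrays 1 to 3 (adjusted p = 0.0206). In lung derivatives row 7915479 was the called row (0.50, SE 0.12, adjusted p = 0.0263), with 12.43, 12.52 and 12.64 in the lung arrays against 11.86, 11.97, 12.02 and 12.27 in parental arrays 1 to 4. This row differed from parental array 4 alone by 0.26 (limma adjusted p = 0.377). Leaving out single arrays took the limma adjusted p of the first row as high as 0.153, with 6 of 10 arrays ending its call, and that of the second as high as 0.0748, with 5 of 10 ending it.

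Differences were not even along SLC2A1. The first 8 rows by number differed by 0.12 to 0.44 in liver derivatives, and the last 4 rows by 0.72 to 1.19. In the last 3 of these, parental array 4 stood far below the rest: it held 9.27 in row 7915482, 9.04 in row 7915483 and 8.13 in row 7915484, while parental arrays 1 to 3 held 10.34 to 10.84, 10.57 to 11.08 and 9.25 to 9.78. Against parental array 4 alone, the lung arrays were thus higher by 1.56 in row 7915482 and by 1.89 in row 7915483, which is given as a description, since the single array sets the difference. Over all 4 parental arrays the lung differences of these rows were 0.54 and 0.50, and neither was called (limma adjusted p = 0.276 and 0.463). In the first 8 rows the lung arrays differed from parental array 4 alone by 0.02 to 0.36. The difference of 0.55 for the mean of all SLC2A1 rows rests on the same single array. In row 7915484 the lung arrays held 8.81, 9.64 and 9.06 and the liver arrays 10.20, 10.43 and 10.27, so that the lung arrays lay within the range of the parental arrays and the liver arrays above it.

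**Figure D3:**
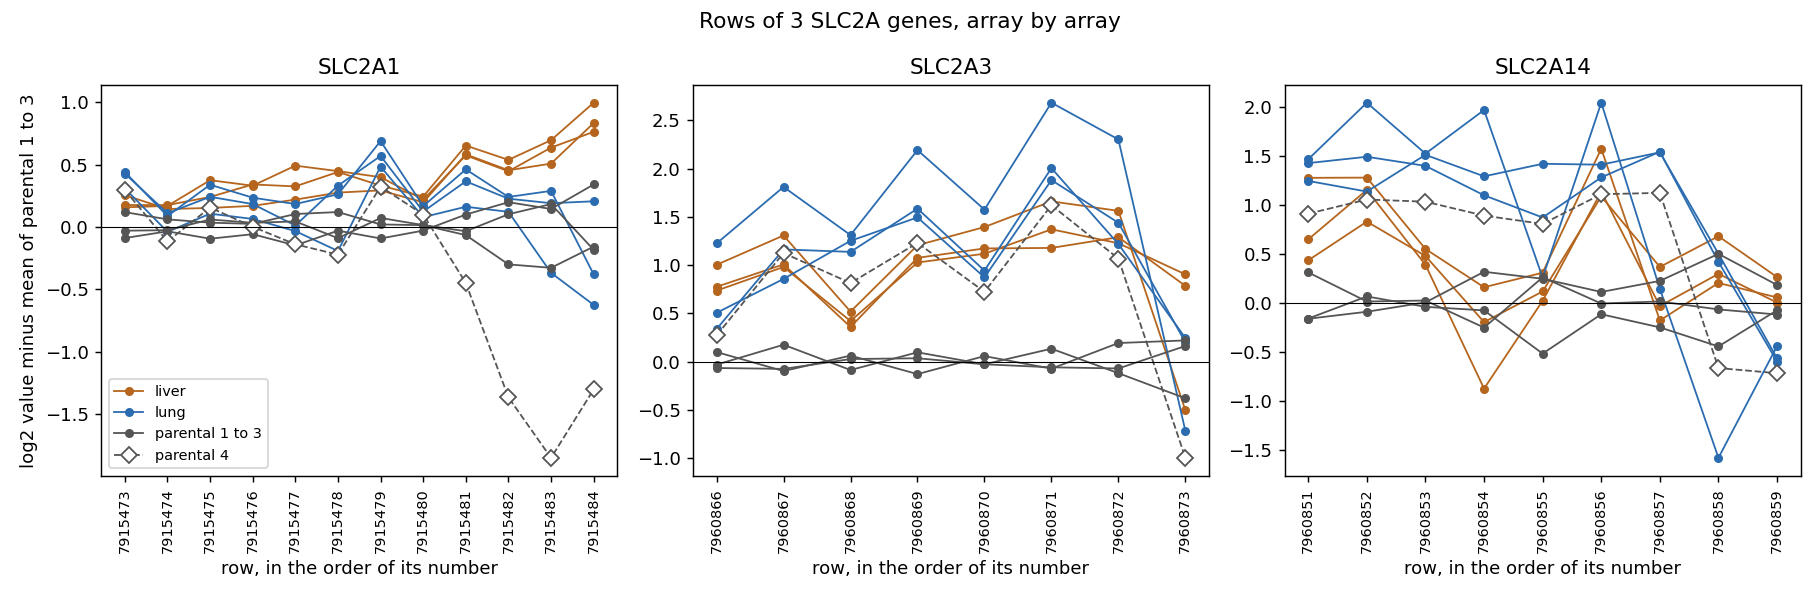
Log2 value of each row of SLC2A1, SLC2A3 and SLC2A14 minus the mean of parental arrays 1 to 3 in that row (vertical axes), in the order of the row numbers, with one line per array. The dashed line with open diamonds is parental array 4, which lies above parental arrays 1 to 3 in 7 of the 8 SLC2A3 rows and falls far below the other arrays in the last 3 SLC2A1 rows.

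Among the intestinal transporters, SLC2A5, the fructose transporter gene, was slightly higher in lung derivatives by the mean of its 14 rows. Its mean log2 level was 6.87, 6.72 and 6.65 in the liver arrays and 6.95, 7.0 and 6.92 in the lung arrays, against 6.60, 6.64, 6.80 and 6.72 in parental arrays 1 to 4. The lung arrays lay above all other arrays and the liver arrays lay among or just above the parental ones. SLC2A5 rose by 0.27 in lung derivatives (1.21-fold, SE 0.07, limma adjusted p = 0.0183). Its liver difference was 0.06 (95% interval -0.10 to 0.22, adjusted p = 0.743). Against parental array 4 alone the lung difference was 0.24 (limma adjusted p = 0.207). The lung call was lost without parental array 1 (0.24, adjusted p = 0.0538), parental array 2 (0.25, 0.0549) or lung array 2 (0.25, 0.0517), and by the brightest row (0.33, 0.0567) or the median of the rows (0.18, 0.306).

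Of the 14 SLC2A5 rows 2 were called higher in lung derivatives, against 5.15% of all rows, and 9 had a positive difference, against 46.3%, with a median of 0.25 over the rows. Row 7912234 held 7.03, 7.90 and 7.25 in the lung arrays and 5.83, 6.15, 5.78 and 6.06 in the parental arrays, a 2.70-fold rise (1.44, SE 0.26, limma adjusted p = 0.0130). Its liver arrays held 7.0, 5.99 and 6.37 and overlapped with the parental range. Row 7912235 rose by 0.64 (SE 0.15, limma adjusted p = 0.0277). These rows differed from parental array 4 alone by 1.33 (limma adjusted p = 0.185) and 0.62 (adjusted p = 0.247). The brightest row, 7912228, differed by 0.33 (adjusted p = 0.102), and against parental array 4 alone limma called 0 of the 14 rows, and 1.12% of all rows.

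For SLC2A7, which encodes GLUT7, no row and no gene mean was called by limma in any of the 3 comparisons, and 0 of its 12 rows had liver or lung arrays apart from all parental arrays, against 16.1% and 23.7% of all rows. Its mean log2 level was 6.80, 6.72 and 6.61 in the liver arrays and 6.90, 6.73 and 6.58 in the lung arrays, against 6.87, 6.57, 6.92 and 6.96 in parental arrays 1 to 4. All 3 groups overlapped. The difference was -0.12 in liver (95% interval -0.35 to 0.11, limma adjusted p = 0.635, unadjusted p = 0.279) and -0.09 in lung derivatives (95% interval -0.32 to 0.14, adjusted p = 0.522, unadjusted p = 0.399).

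Over the 5 genes, 1 of 55 rows was called in liver derivatives, against 2.2% of all rows, and 13 of 55 in lung derivatives, against 13.1% of all rows. All 14 calls were higher in the derivatives. Without parental array 4 the calls numbered 8 in liver and 21 in lung derivatives. The liver count was 3 without lung array 3, and 0 without parental array 2 or 3, lung array 2 or any liver array. The lung count was 3 without parental array 1 or 2, 5 without parental array 3, 8 without lung array 1 and 4 without lung array 3. It was 1 with the lung and parental arrays alone in the fit, where 2120 of all 56949 rows were called. Shares over all rows without single arrays are not given here, so these counts are not read as a trait of the SLC2A rows. A fit with the replicate number as a term gave the same differences as leaving out parental array 4. In lung derivatives it called 17 of the 55 rows and 12420 of all rows. By the mean of rows, SLC2A1 and SLC2A3 were called in liver derivatives, where 7.83% of all genes were called, and SLC2A3, SLC2A14 and SLC2A5 in lung derivatives, where 30.1% of all genes were called. The liver and lung comparisons share their parental arrays, so their values are given side by side and not as separate evidence. The median difference over all genes was 0.01 in liver and -0.01 in lung derivatives.

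Between the derivatives, 0 of the 5 gene means were called lung against liver, where 19.9% of all genes were called. SLC2A14 came nearest, at 8.28 ± 0.12 in lung against 7.77 ± 0.14 in liver derivatives (SD, n = 3 each; difference 0.51, SE 0.17, limma adjusted p = 0.0506, unadjusted p = 0.0103). SLC2A1 averaged 11.73 ± 0.14 in lung and 11.95 ± 0.05 in liver derivatives (difference -0.23, 95% interval -0.47 to 0.01, limma adjusted p = 0.152). SLC2A3 averaged 10.20 ± 0.28 in lung and 9.95 ± 0.03 in liver derivatives (difference 0.25, 95% interval -0.17 to 0.67, adjusted p = 0.362). The array set term sets the liver arrays against parental arrays 1 to 3 and the lung arrays against parental array 4. This split was assumed and is not in the labels. With it as a term the SLC2A14 difference was -0.11, that of SLC2A1 0.15 and that of SLC2A3 -0.48. With that term 0 of the 5 were called, and 0.0849% of all genes. Without parental array 4 SLC2A1 (-0.23, limma adjusted p = 0.0385) and SLC2A14 (0.51, 0.00599) were called, and without parental array 1 SLC2A14 was (0.51, 0.0374).

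Of the 55 rows 4 were higher in lung than in liver derivatives, against 5.02% of all rows, and 0 were lower, against 7.61%. The SLC2A14 rows 7960854 (1.75, SE 0.36) and 7960853 (1.0, SE 0.26) and the SLC2A3 row 7960868 (0.80, SE 0.21) were joined by SLC2A5 row 7912236 (0.52, SE 0.11). In the last of these the lung arrays held 7.90, 8.11 and 8.11, against 7.63, 7.46 and 7.47 in the liver arrays. Row 7960854, with the largest difference, was a low row: the lung arrays held 6.06, 5.86 and 6.73 and the liver arrays 4.57, 3.89 and 4.93. The array medians were 8.62 to 8.72 and the table minimum 2.55. With the array set as a term 0 of the 55 rows were called, where 0.0632% of all rows were called, and rows 7960853 and 7960868 differed by -0.03 and -0.01. Without parental array 4 the count was 12. It was 2 without parental array 2 or 3, 1 without any one lung array and 0 without any one liver array. Shares over all rows without single arrays are not given here either.

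By the rule for likeness, the 5 genes whose row means followed SLC2A3 most closely over the 10 arrays were KDM5B, CD9, NR4A1, TSPAN1 and GTPBP4. Their Pearson correlations with SLC2A3 were 0.993, 0.990, 0.964, 0.964 and 0.956, the highest of 3930 genes with at least 4 rows. KDM5B encodes a histone demethylase, CD9 and TSPAN1 encode tetraspanins, NR4A1 a nuclear receptor and GTPBP4 a GTPase of ribosome assembly. In KDM5B, as in SLC2A3, parental array 4 (8.70) lay above parental arrays 1 to 3 (8.06 to 8.11).

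The genes most like SLC2A1 were ZNF385A, FBH1, CCND2, PFDN2 and RAB6A, with correlations of 0.956, 0.954, 0.942, 0.935 and 0.934. CCND2 encodes the G1 cyclin D2, and its level in parental array 4 was 6.84, against 7.54 to 7.72 in parental arrays 1 to 3. It rose by 2.23 in liver and by 1.33 in lung derivatives, and both differences were called. Against parental arrays 1 to 3 the liver rise was 2.03, and against parental array 4 alone the lung rise was 1.93, both called by limma. These correlations describe 10 arrays that share their groups and array sets.

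Among the nearest genes of the table on each side of the transporters, CA6 and RERE were called in liver derivatives, where 7.83% of all genes were called. Around SLC2A14 and SLC2A3 on chromosome 12, the genes DPPA3, CLEC4C, NANOG, NANOGP1, FOXJ2, C3AR1 and NECAP1 gave 0 calls in liver derivatives, and in lung derivatives FOXJ2 was lower (-0.20, limma adjusted p = 0.0288; -0.13, 0.352 against parental array 4 alone). Around SLC2A1 on chromosome 1, SVBP, ERMAP, ZNF691, CFAP144, EBNA1BP2 and CFAP57 gave 0 calls in liver derivatives. In lung derivatives 4 of them were lower, SVBP, ERMAP, ZNF691 and EBNA1BP2, and CFAP57 was higher, where 30.1% of all genes were called. ERMAP was also called against parental array 4 alone (-0.34, limma adjusted p = 0.0286), while SVBP (-0.16), ZNF691 (-0.07), EBNA1BP2 (-0.06) and CFAP57 (0.20) were not.

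CA6, the gene before SLC2A7 and SLC2A5 in this order, encodes a secreted carbonic anhydrase and rose in both derivatives. Its mean log2 level was 7.83, 7.66 and 7.36 in the liver arrays and 7.53, 7.57 and 8.14 in the lung arrays, against 6.15, 6.07, 6.37 and 6.31 in parental arrays 1 to 4. The rises were 1.39 in liver (SE 0.16, limma adjusted p = 0.000189) and 1.52 in lung derivatives (SE 0.16, adjusted p = 9.33e-05), with 1.44 against parental array 4 alone. RERE rose by 0.42 in liver derivatives (limma adjusted p = 0.000435; 0.42 against parental arrays 1 to 3), MIR34A by 0.31 in lung derivatives (adjusted p = 0.0442; 0.09, 0.690 against parental array 4 alone), and ENO1, GPR157 and H6PD were not called in either.

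The genes that act on sugar once it has entered the cell moved in both directions. In the list of sugar phosphorylation and upper glycolysis, 2 of 10 genes were higher and 1 lower in liver derivatives, and 1 was higher and 3 lower in lung derivatives, with list medians of 0.09 and -0.04. Over all genes 7.83% were called in liver and 30.1% in lung derivatives. HK1, the ubiquitous hexokinase that traps glucose as its phosphate, rose by 0.31 in liver derivatives (9.09 ± 0.04 against 8.79 ± 0.09 in parental cells, SD, n = 3 and 4, limma adjusted p = 0.0162). PFKFB2, which makes and degrades the activator of phosphofructokinase, rose by 0.53 in liver and 0.32 in lung derivatives. HKDC1, a further hexokinase, fell by 0.38 in liver and by 0.82 in lung derivatives (7.82 ± 0.11 in lung against 8.65 ± 0.18 in parental cells). PFKM and PGM1 fell by 0.39 and 0.55 in lung derivatives. Within the array sets HK1, PFKFB2 and HKDC1 were called in liver derivatives, and HKDC1 (-0.57) and FGGY (-0.32) in lung derivatives.

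In lower glycolysis and lactate metabolism 0 of 9 genes were called by limma in liver derivatives and 1 in lung derivatives, with medians of -0.03 and -0.05. The called gene was PGAM1, phosphoglycerate mutase (0.57, 11.02 ± 0.03 in lung against 10.45 ± 0.12 in parental cells, SD, n = 3 and 4), with 0.42 against parental array 4 alone (limma adjusted p = 0.0203). Of 5 genes of the monocarboxylate carrier family SLC16, SLC16A7 was higher in liver derivatives (0.34). Against parental arrays 1 to 3 it was higher by 0.36 (limma adjusted p = 0.0460). Over all genes 7.83% were called in liver and 30.1% in lung derivatives. In lung derivatives SLC16A12 (0.37) was higher and SLC16A1 (-0.44) and SLC16A9 (-0.70) were lower, with medians over the list of -0.08 in liver and 0.14 in lung derivatives. Against parental array 4 alone these were 0.06, -0.22 and -0.31 in the same order, and 0 of the 5 were called. Against parental arrays 1 to 3 SLC16A9 was also lower in liver derivatives (-0.48). Of 6 other sugar transporters 0 were called against parental cells (medians -0.06 and 0.09). Between lung and liver 19.9% of all genes were called. SLC2A13, a myo-inositol transporter of the same family, was higher in lung than in liver derivatives (0.38, limma adjusted p = 0.0183), as was SLC45A3 (0.25). With the array set as a term these were 0.20 (limma adjusted p = 0.667) and 0.14 (adjusted p = 0.747).

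Among 11 regulators of hexose transporters, TXNIP, which promotes the endocytosis of GLUT1, was the one called gene in liver derivatives. Over all genes 7.83% were called there. TXNIP was lower by 0.25 (11.04 ± 0.03 in liver against 11.29 ± 0.04 in parental cells, SD, n = 3 and 4, limma adjusted p = 0.0212; 0.0257 against parental arrays 1 to 3), while in lung derivatives its difference was -0.06. In lung derivatives 6 of the 11 were lower, against 17.3% of all genes: MLXIP, a glucose-sensing transcription factor, the oxygen-sensing hydroxylases EGLN1 and HIF1AN, the AMP-activated kinase subunit PRKAA2, and SNX27 and VPS26B, which act in the return of membrane proteins from endosomes to the surface. Their falls were 0.22 to 0.37, the list median was -0.22, and 0 were called against parental array 4 alone.

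The hypoxia-responsive list had 1 called gene of 7 in liver derivatives and 2 in lung derivatives, with medians of 0.02 and -0.02. Over all genes 7.83% were called in liver and 30.1% in lung derivatives. ADM, the secreted peptide adrenomedullin, rose by 0.69 in liver and by 0.85 in lung derivatives (9.30 ± 0.02 in liver and 9.46 ± 0.10 in lung against 8.61 ± 0.16 in parental cells, SD, n = 3, 3 and 4), and it was called within both array sets. EGLN1, which also stands in this list, was lower in lung derivatives. P4HA1, BNIP3, MXI1 and PFKFB3 were not called in any of the 3 comparisons. DDIT4 was higher in lung than in liver derivatives (1.04, limma adjusted p = 0.0373), where 19.9% of all genes were called. With the array set as a term its difference was 0.09.

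**Figure D4:**
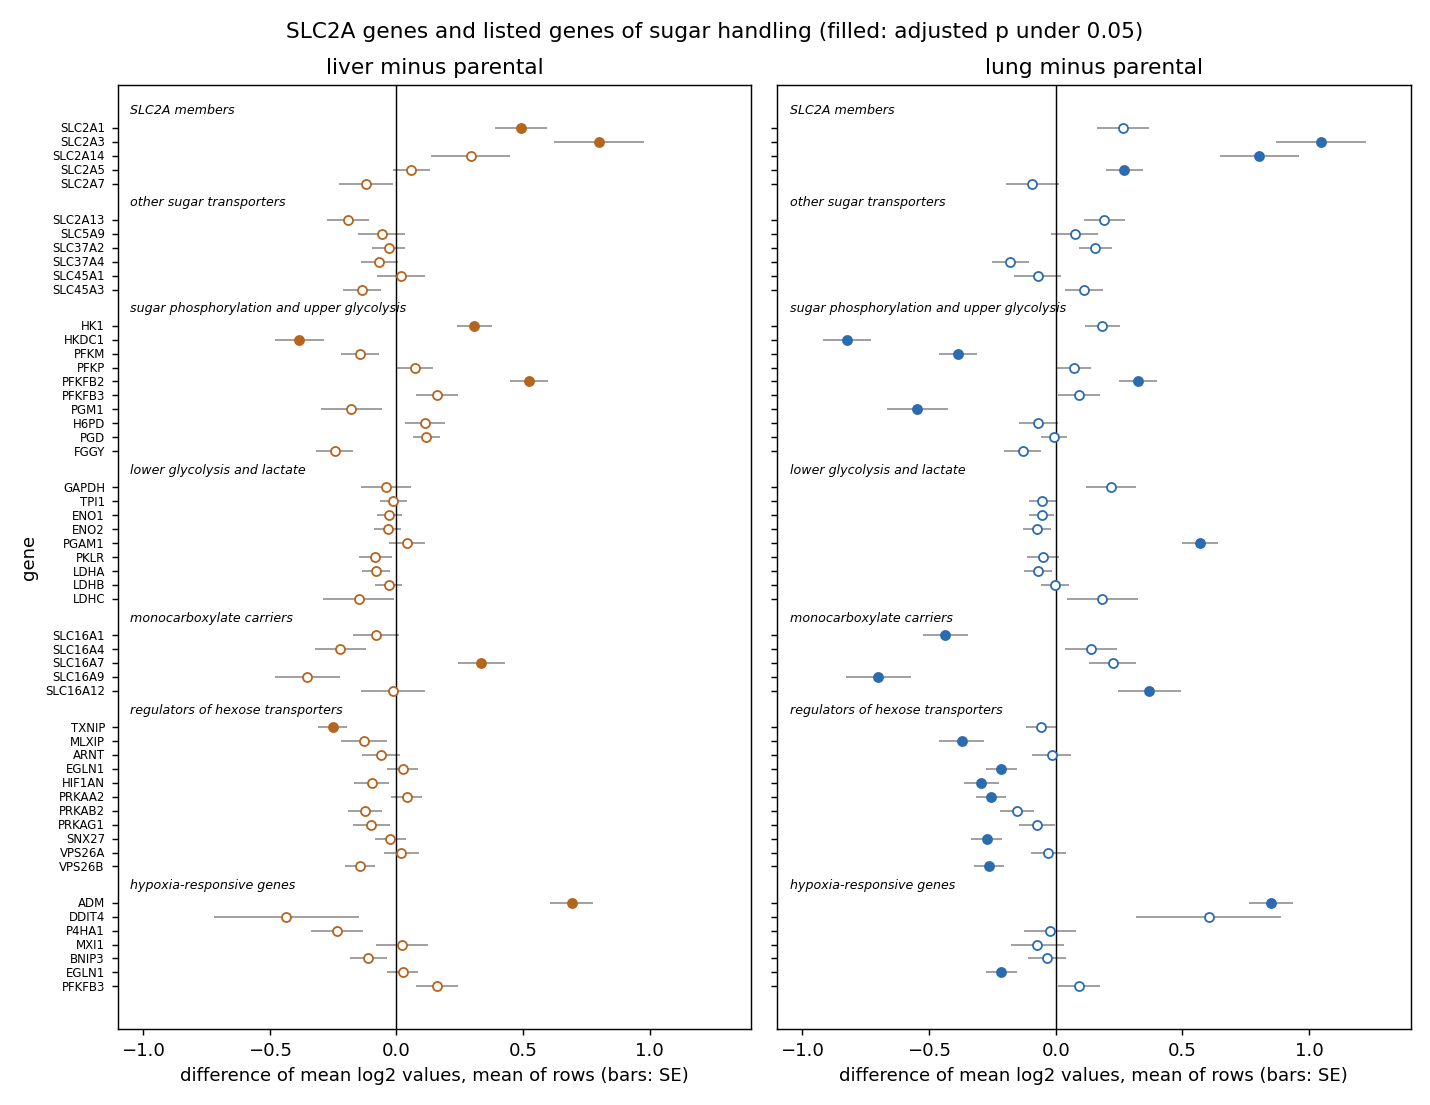
Differences of the mean of rows (horizontal axes, log2, bars are SE) for the 5 SLC2A genes and the listed genes of sugar handling, liver minus parental on the left and lung minus parental on the right. Filled points have an adjusted p under 0.05, and the SLC2A3 points lie at 0.80 and 1.05 while most genes of lower glycolysis lie near 0.

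Markers of other cell types were checked beside the transporters. Of 8 leukocyte and phagocyte markers, CD4 and LYZ were higher in liver derivatives, and CD4, LYZ, PTPRC and CD53 were higher and FCER1G lower in lung derivatives. Over all genes 4.33% were called higher in liver and 12.9% in lung derivatives. The mean log2 level of this list was 6.70 to 6.79 in the liver arrays and 6.90 to 7.0 in the lung arrays, against 6.49 to 6.67 in the parental arrays. PTPRC, which defines leukocytes, averaged 5.06 ± 0.08 in liver and 5.23 ± 0.03 in lung derivatives, against 5.04 ± 0.07 in parental cells (SD, n = 3, 3 and 4). CD4 and LYZ were also called within both array sets, and PTPRC, CD53 and FCER1G were not. Of 6 lung epithelial markers SFTPA1, SFTPA2 and PDPN were higher in lung derivatives, with a list mean of 7.34 to 7.46 in the liver arrays and 7.49 to 7.61 in the lung arrays, against 7.26 to 7.42 in the parental arrays. In lung derivatives SELE of 5 endothelial markers and DCN of 5 stromal markers were higher, and CYP2E1 and RBP4 of 7 hepatocyte markers were lower, while the stromal marker LUM was lower in both derivatives. Of these lung calls LUM was the one also made against parental array 4 alone, where the surfactant genes SFTPA1 and SFTPA2 differed by 0.17 and 0.42 and PDPN by 0.29. The part of such cells in the SLC2A values was not tested. The red cell markers HBB and HBD gave 0 calls by limma, with list means of 5.38 to 5.74 in liver and 5.07 to 5.46 in lung arrays, against 5.30 to 5.65 in parental arrays.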

How the data were processed

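The deposited values are log2 expression values. The tools named in the submitters' processing notes are RMA and oligo, with no version and no summary level. They lay between 2.55 and 13.99, with array medians of 8.62 to 8.72 over the tested rows, so no log was taken. RMA places arrays on a common distribution, so a change in total RNA cannot be seen, and the number of arrays limits the precision.

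Rows were named through the platform annotation: 56949 of 65535 list a gene, of which 54806 list 1 symbol, and outdated symbols were updated through a RefSeq table. The rows give 4713 genes, 4660 of them on chromosomes 1, 10, 11 and 12, and genes elsewhere are not analysed here. Which genome build the platform annotation rests on was not stated, so no probe coordinates are printed.

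Each row was fitted with limma 3.58.1 (R 4.3.3), 1 coefficient per group over all 10 arrays, with two-sided eBayes tests adjusted by Benjamini-Hochberg over all tested rows, or over all genes for the mean of a gene's rows. Changes are differences of mean log2 values. The fit was tested on simulated data. Named were all members, their brightest and called rows, the 5 genes most like SLC2A1 and SLC2A3, 3 neighbours on each side, and called list genes. Members and lists were chosen with earlier results of these data known.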

Additional observations from a re-analysis of the deposited data

Results flagged for a closer look

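In the parental group, the gap between parental array 4 and the nearest other array was large against the range of the 4 arrays for several SLC2A values, past Dixon's critical ratio for a group of this size. The ratio was 0.883 for the mean of the SLC2A1 rows, where array 4 was low, and 0.906 for the mean of the SLC2A3 rows, where it was high. It was 0.864 and 0.940 for SLC2A14 rows 7960852 and 7960853. For SLC2A3 rows 7960868, 7960869, 7960870 and 7960871 it was 0.834, 0.834, 0.887 and 0.878, again with array 4 high. In all, 8 of 23 parental groups tested passed this ratio. The nominal rate is about 1 in 20, but these values share their arrays and parental array 4 stood apart over all tested rows. The share over all rows or genes was not computed, so the count is not read as a trait of the SLC2A genes. Changes with and without this array stand beside the results above.

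The lung and liver derivatives differed by the test of their difference in 4 rows. SLC2A5 row 7912236 was higher in lung by 0.52, SLC2A14 rows 7960853 and 7960854 by 1.0 and 1.75, and SLC2A3 row 7960868 by 0.80. The limma adjusted p was 0.0247, 0.0380, 0.0247 and 0.0414 in that order, and 0 of the 4 were called with the array set as a term.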

How the results depend on the processing

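When the array set entered the fit, rows called numbered 8 in liver, 2 in lung and 0 between lung and liver, against 1, 13 and 4, and 1 gene mean was called in lung derivatives, against 3. In liver derivatives SLC2A14 was then called (0.45, limma adjusted p = 0.0209), in lung derivatives SLC2A1 was called (0.55) and SLC2A3 (0.50), SLC2A5 (0.24) and SLC2A14 (0.34) were not. Lung minus liver turned for SLC2A1 (0.15), SLC2A3 (-0.48), SLC2A7 (-0.15) and SLC2A14 (-0.11), and for rows 7912215 (-0.38), 7912228 (-0.0437), 7915479 (-0.0840), 7915481 (0.18), 7960851 (-0.32), 7960852 (-0.59), 7960853 (-0.0311), 7960856 (-0.80), 7960868 (-0.0134), 7960869 (-0.58), 7960871 (-0.83) and 7960872 (-0.77). Row 7912215 was -0.37 in lung and 0.00914 in liver derivatives. Replicate numbers do not pair the samples: deviations of same-numbered arrays correlated at -0.078 to 0.030 over 9 pairs, against -0.088 to 0.135 over 18 others. The fit with the replicate block called 4 rows in liver and 12 between lung and liver, where 786 and 10045 of all 56949 rows were called. SLC2A14 was called in liver (0.45, limma adjusted p = 0.0464) and, as the 1 gene there, lung against liver (0.51, 0.0140). Row 7912215 was at 0.00914 in liver. Only the parental group has a replicate 4, so that fit gave the same differences as leaving out parental array 4. Rows called in liver numbered 2 after centring, 3 over rows above the median, 5 with eBayes trend and robust and 2 with 2 groups in the fit. In the same order these fits called 1284, 1132, 1694 and 1280 of all rows they tested, against 1252 in the main fit. With 2 groups in the fit 1 row was called in lung derivatives and 9 rows between lung and liver, where 2120 and 9426 of all 56949 rows were called. With trend and robust 7 rows were called between lung and liver, where 10657 of all rows were called. The main fit called 7483 of all rows in lung derivatives and 7194 between lung and liver. In the lung comparison SLC2A1 was called after quantile normalization (0.31), centring (0.32) and trend and robust (0.26). Over genes above the median only SLC2A1 and SLC2A3 were among the genes tested, and SLC2A3 was called in lung derivatives (1.05). Between lung and liver, 1 gene was called after quantile normalization, 2 after centring, 1 with trend and robust, 1 with 2 groups and 2 by the brightest row. SLC2A14 was called there in all of these (0.55, 0.56, 0.51, 0.51 and 1.0), SLC2A5 after centring (0.26) and SLC2A3 by its brightest row (0.80). SLC2A14 was not called there by the median of rows (0.59, limma adjusted p = 0.159) or by the mean of rows above the median level (0.29, 0.217). In liver derivatives 0 genes were called by the brightest row (SLC2A1 0.20, SLC2A3 0.23), 0 by the median of rows (SLC2A1 0.29, SLC2A3 0.88) and 1 by the mean of rows above the median level, a setting chosen after seeing the data (SLC2A1 called at 0.49, SLC2A3 not called at 0.82). In lung derivatives SLC2A5 was not called by its brightest row (0.33) or the median (0.18). Uncalled signs turned with the median of rows for SLC2A5 in liver (-0.00307), SLC2A7 in liver (0.11), in lung (0.0613) and between lung and liver (-0.0468), and SLC2A7 was 0.23 in lung derivatives by its brightest row and by the rows above the median level. The cause of these shifts was not tested, and the SLC2A1 lung call with the array set rests on parental array 4 alone. Among all rows called in lung derivatives 39.2% were higher, against 49.1% after quantile normalization and 49.4% after centring, and between lung and liver 39.7%, 51.5% and 48.8%.

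Leaving out 1 array at a time, the rows called ranged from 0 to 8 in liver, 3 to 21 in lung and 0 to 12 between lung and liver, and gene means from 0 to 3, 2 to 3 and 0 to 2. The 21, 8 and 12 came without parental array 4, and 3 rows were called in lung derivatives without parental array 1 or 2. Shares over all rows in these fits are not given, so the counts are not read as a trait of the SLC2A rows. SLC2A3 and SLC2A14 kept their lung call in all 10 fits, at 0.89 to 1.23 and 0.69 to 0.96. Ranges in lung derivatives were 0.17 to 0.35 for SLC2A1, 0.24 to 0.31 for SLC2A5 and -0.18 to -0.01 for SLC2A7. In liver derivatives they were 0.40 to 0.53 for SLC2A1, 0.73 to 0.98 for SLC2A3, -0.0014 to 0.11 for SLC2A5, -0.21 to -0.07 for SLC2A7 and 0.18 to 0.45 for SLC2A14. Between lung and liver they were -0.27 to -0.15 for SLC2A1, 0.09 to 0.33 for SLC2A3, 0.16 to 0.27 for SLC2A5, -0.0544 to 0.11 for SLC2A7 and 0.44 to 0.58 for SLC2A14. Uncalled row signs turned for row 7912215 in liver (-0.31 to 0.00914) and, between lung and liver, for rows 7960870 (-0.32 to 0.0307) and 7960872 (-0.0309 to 0.51).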
